A study of Mus musculus with 283 samples.

Results

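Cxcl13, Ccl19, Ccl21a, Ccr7, Lta, Ltb and Tnfsf13b, 7 genes whose products place lymphocytes within lymphoid tissue, were followed through a collection of mouse mammary tumours, with and without immune checkpoint therapy, and of mammary glands without a tumour. The genes were taken by name from the deposited expression table of tumours and glands, which holds 45657 uniquely named gene entries. Levels are given as log2(value + 1) of the deposited upper-quartile normalized signal, so that a difference of 1 is a factor of 2 for values well above 0. The signal is not scaled to transcript length, and levels are therefore compared between samples and not between genes.

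The 3 chemokines are made mainly by stromal cells of lymph nodes and spleen. CXCL13 draws B cells and follicular helper T cells into follicles through the receptor CXCR5, and CCL19 and CCL21 draw naive T cells and mature dendritic cells into the T cell zone through CCR7. Lta encodes lymphotoxin alpha and Ltb encodes lymphotoxin beta. Both are made by lymphocytes, and together they form the membrane-bound trimer that signals through the lymphotoxin beta receptor and the non-canonical NF-kB pathway, the route by which stromal cells are induced to make these chemokines. Tnfsf13b encodes BAFF, a survival factor for B cells made largely by myeloid cells. In tumours, expression of these genes is used as a sign of tertiary lymphoid structures, which are lymph node-like aggregates that form outside lymphoid organs.

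After averaging 2 animals that had 2 libraries each, the table held 262 samples, of which 253 were tumours and 9 were mammary glands. One protocol text stands on the labels of all models and describes orthotopic injection into syngeneic hosts. Whether it holds for KPB-Primary, C3-TAG and PyMT is not stated apart from that text. Mice joined a study arm when the tumour measured 5 mm across, and the treated arms received anti-PD1 at 10 mg per kg together with anti-CTLA4 at 125 ug. The labels class models by response to therapy. T11, KPB-1A and the p53 transplants p53-2153F, p53-2224, p53-2224L, p53-2225L, p53-2336R and p53-9263-3 are classed as resistant. T11-UV, T11-Apobec, KPB25L, KPB25L-UV and KPB25L-Apobec are classed as sensitive. The remaining models, among them the other p53 transplants, are of unknown response. The name endings UV and Apobec mark derivatives of T11 and of KPB25L. DNA samples of this series give BALB/c as the strain of the T11 and p53 models and FVB as that of KPB25L, and the tumour labels themselves give no strain, age or genotype beyond the model name. Tumours were taken at 3 days, at 7 days and at end stage. The untreated tumours labelled 3 days are called pretreatment in the header of the deposited table. That header also calls C3-TAG resistant, and the labels were followed in both cases. The models of unknown response were sampled untreated at end stage and included 24 KPB-Primary, 11 C3-TAG, 9 ILC-Pik3Ca/Cdh1Null and 5 PyMT tumours. The gland samples were 5 from BALB/c and 4 from FVB mice, and 2 of each strain are labelled as pooled.

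The estimated depth ran from 3.45 M to 149.1 M reads per library, with a median of 51.3 M. An estimated 1 read was worth a median of 1.01 signal units, and from 0.415 to 19.609 units across libraries. At these depths Ccr7, Lta, Ltb and Tnfsf13b were above 0 in all 264 tumour and gland libraries, whereas Ccl19 was at 0 in 79 libraries, Ccl21a in 65 and Cxcl13 in 28. An estimated 53.1% of samples held fewer than 3 reads of Ccl19, 34.7% of Ccl21a and 21.8% of Cxcl13, and differences among samples with the lowest values of these chemokines are not resolved. As T11 markers served the 50 genes with the largest excess of untreated T11 over untreated KPB25L tumours at 3 days. Of 27 samples labelled KPB25L-UV, 6 had mean levels of these genes between 6.44 and 8.84. The mean was 1.42 to 4.22 in the other 21 and 7.38 to 9.79 in the T11, T11-UV and T11-Apobec tumours. These 6 are called samples that hold T11 transcripts, and the cause of their marker levels was not tested. At 7 days these were untreated samples 3 and 4 and treated samples 1 and 5, where the numbers are names only, and results that rest on them are given with and without them. Tumours are mixtures of cells, and fewer cells of a type and less RNA per cell cannot be told apart in these data.

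In GRCm38 coordinates, Ltb (ENSMUSG00000024399.5) lies on the plus strand of chromosome 17 at chr17:35194439-35196320 and Lta (ENSMUSG00000024402.5) on the minus strand at chr17:35203165-35205351, with 6844 bases between them. Their RefSeq promoters, 250 bases before to 50 bases after the start site, are shown because these neighbouring genes rose together in treated tumours. Capitals mark the match to the NF-kB kappa-B consensus, 10 bases long and searched on both strands.
Ltb promoter: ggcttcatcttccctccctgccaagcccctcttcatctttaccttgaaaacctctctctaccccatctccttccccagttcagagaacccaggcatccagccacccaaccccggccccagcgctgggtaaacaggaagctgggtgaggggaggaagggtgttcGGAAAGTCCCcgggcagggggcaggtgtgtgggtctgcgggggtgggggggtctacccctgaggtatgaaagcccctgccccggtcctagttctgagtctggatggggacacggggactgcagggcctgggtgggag
Lta promoter: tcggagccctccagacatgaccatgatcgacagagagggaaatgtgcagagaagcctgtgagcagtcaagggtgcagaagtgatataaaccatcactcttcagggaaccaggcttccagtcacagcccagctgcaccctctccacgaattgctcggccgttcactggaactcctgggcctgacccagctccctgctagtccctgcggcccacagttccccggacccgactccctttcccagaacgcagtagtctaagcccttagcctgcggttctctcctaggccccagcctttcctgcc
The Ltb window is chr17:35194257-35194556, plus strand, and the Lta window is chr17:35205302-35205601, minus strand, both from the GRCm38.p6 build. The match in Ltb begins at position -87 from the start site and reads in the consensus direction on the strand opposite to the gene. Of 32851 promoters of this length, 8.5% held at least 1 match. RefSeq promoters were found for 6 of the 7 genes, and Ltb alone among the 6 held one.

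The other genes lie on 4 chromosomes. Ccl19 (ENSMUSG00000071005.7, chr4:42754525-42756577) and Ccl21a (ENSMUSG00000094686.1, chr4:42772860-42773993) are both on the minus strand of chromosome 4, 16282 bases apart, in a cluster that in the mouse also holds near-identical copies. Copies listed in the table were lower than the named genes. Ccl21b reached 2.72 at most and was above 0 in 32 of 262 samples, and Ccl19-ps1 reached 5.70. No source used here says how reads shared between copies were assigned, and the values of Ccl19 and Ccl21a are uncertain to that extent. Cxcl13 (ENSMUSG00000023078.6) is at chr5:95956951-95961068, Tnfsf13b (ENSMUSG00000031497.9) at chr8:10006467-10039072 and Ccr7 (ENSMUSG00000037944.8) at chr11:99144196-99155077.

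Mammary glands held the highest levels of 6 of the 7 genes, and among untreated end-stage tumour groups of 4 or more samples the mean of ILC-Pik3Ca/Cdh1Null came nearest to them for 5 of the 6, with KPB-1B nearest for Ccr7. Single untreated end-stage tumours were higher for Ccr7 than these group means. Within the larger groups they reached 10.58 in KPB25L-UV and 9.95 in ILC-Pik3Ca/Cdh1Null. Among models with 1 end-stage tumour, p53-9263-3 was at 9.73 and p53-T1 at 9.49. Cxcl13 in the 5 BALB/c glands was 13.44, 11.71, 10.74, 11.87 and 11.60, and in the 4 FVB glands 8.65, 11.72, 10.78 and 12.92. Of 253 tumours of any model, time or arm, 22 exceeded the lowest gland for Cxcl13. Ccl21a, the stromal ligand of CCR7, was 16.42, 14.11, 14.06, 14.20 and 13.85 in BALB/c glands and 10.40, 13.52, 11.65 and 13.08 in FVB glands, and 19 tumours exceeded the lowest gland. Ccl19 was between 8.39 and 12.82 in glands, with a median of 1.76 in tumours, of which 10 exceeded the lowest gland. Ccr7, Lta and Ltb overlapped more, with 57, 60 and 59 tumours above the lowest gland. Tnfsf13b overlapped most, with 103 tumours above the lowest gland.

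**Figure D1:**
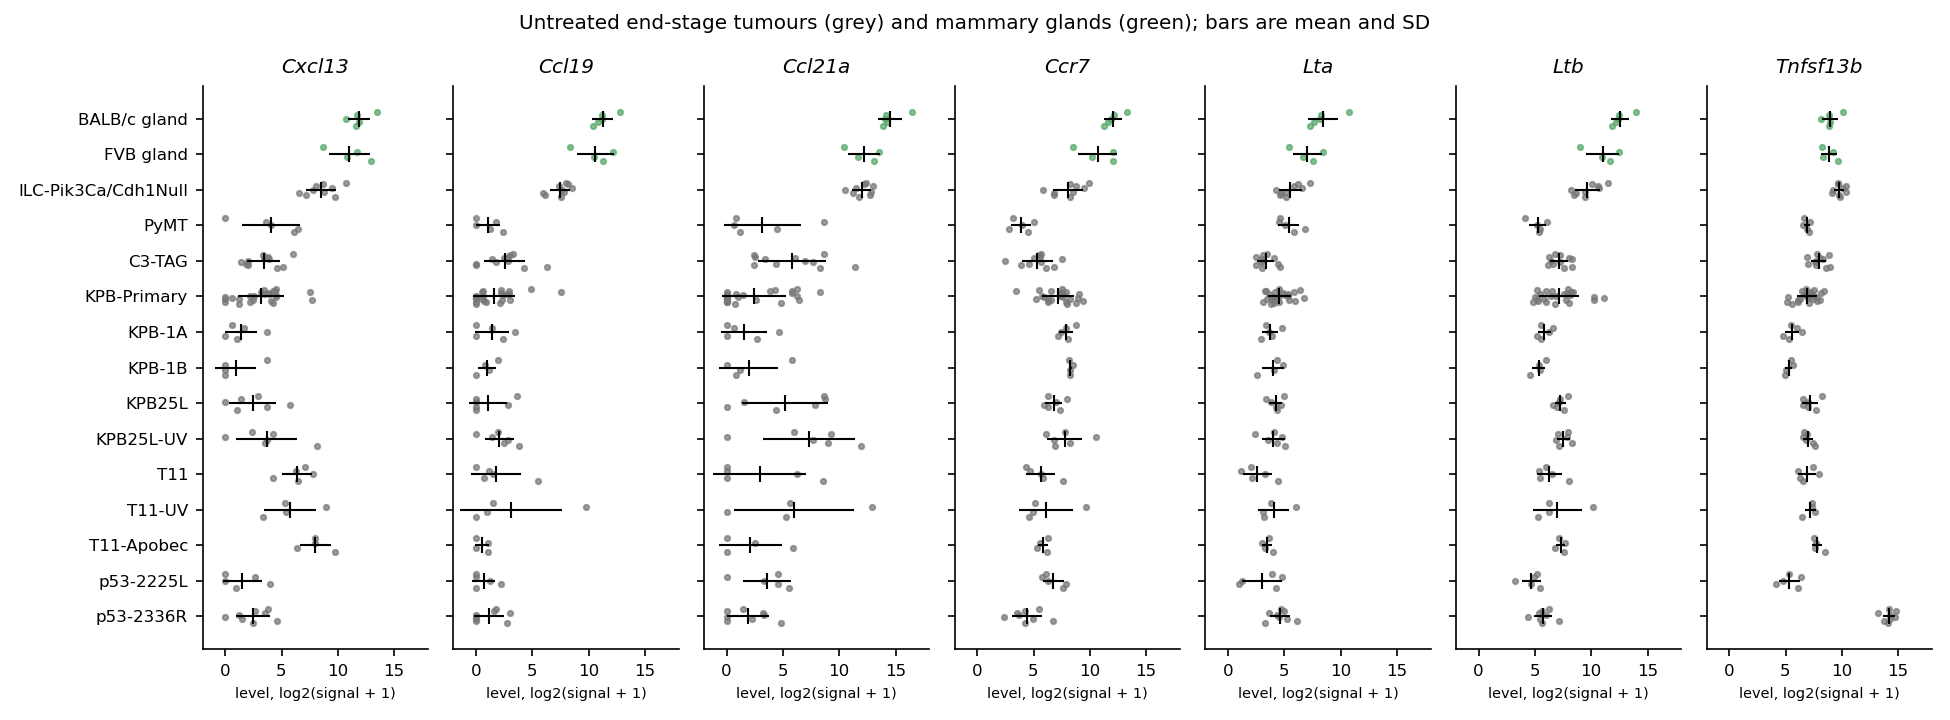
Levels of the 7 genes, as log2(signal + 1) on the horizontal axes, in 15 groups of untreated end-stage tumours (grey) and mammary glands (green). Each dot is 1 sample and black bars give the mean and SD. Glands lie to the right for 6 genes, ILC-Pik3Ca/Cdh1Null is the nearest tumour model for most of them, and p53-2336R lies apart for Tnfsf13b at 14.16.

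Tumours fell below glands of the matching strain in nearly every case. With limma across 21364 genes and Benjamini-Hochberg adjustment, all 7 genes were lower in T11 end-stage tumours than in BALB/c glands, where 35.2% of all genes were lower. Among the chemokines, Cxcl13 was lower by a log2 difference of -5.51 ± 1.14 (SE, 5 tumours and 5 glands), Ccl19 by -9.48 ± 1.07 and Ccl21a by -11.57 ± 1.78. Ccr7 differed by -6.40 ± 0.80, Lta by -5.82 ± 0.65, Ltb by -6.27 ± 0.75 and Tnfsf13b by -2.10 ± 0.43, and the largest adjusted p of the 7 was 2.66e-05. The members' median difference was -6.27, beside -0.36 over all genes tested. After rescaling to sample medians Tnfsf13b was -1.37 ± 0.42 and still passed.

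Against FVB glands, all 7 genes were also lower in KPB25L end-stage tumours, where 30.4% of all genes were lower. The differences ran from -1.70 ± 0.44 for Tnfsf13b to -9.51 ± 1.09 for Ccl19 (6 tumours and 4 glands). In the mean of p53-2225L and p53-2336R, 6 genes were lower than in BALB/c glands, as were 33.9% of all genes. Tnfsf13b was the exception at 0.77 ± 0.36 (adjusted p = 0.0592), a mean over models as unlike as p53-2336R at 14.16 and p53-2225L at 5.35. In the mean of C3-TAG, PyMT, ILC-Pik3Ca/Cdh1Null and KPB-Primary all 7 were lower than in glands, where 28.8% of genes were lower. The members' median difference was -5.24. That mean also covers unlike models. Tnfsf13b in ILC-Pik3Ca/Cdh1Null was 9.78 ± 0.45 (SD, n = 9), above the means of 8.98 in BALB/c and 8.87 in FVB glands. C3-TAG at 7.95, KPB-Primary at 6.92 and PyMT at 6.88 lay below both gland means. BALB/c and FVB glands did not differ by the test in any of the 7, where 3.54% of genes differed in either direction. By limma 1 of the 7, Lta, had an unadjusted p under 0.05, at 1.40 ± 0.69. That test takes its spread from tumour groups as well. Between the gland means the gap exceeded the larger SD for Ccl21a, Lta and Ltb, and not for the other genes. Ccl21a was 13.85 to 16.42 in BALB/c and 10.40 to 13.52 in FVB glands.

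Lymphocyte markers moved with these genes. The summed level of 5 B cell markers was 13.91 to 17.57 in BALB/c glands and 10.81 to 14.59 in FVB glands, against 3.70 to 14.63 in untreated end-stage tumours. Cr2, Fcer2a and Chst4, markers of follicles and of lymph node venules, summed to 9.35 to 16.14 in glands, and none of the 3 was at 0 in any gland sample. In untreated end-stage tumours their sum was 0.75 to 12.29. All 5 B cell and all 5 T cell markers were lower in T11 than in BALB/c glands, and so were all 5 adipocyte markers. The mouse inguinal mammary fat pad contains a lymph node, and the labels do not say whether the dissected glands included it. The part of these cells in the difference was not tested.

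The ordering of the 13 end-stage tumour groups and 2 gland groups was mostly not resolved. The gap between neighbours was smaller than the larger of their SDs for 12 of 14 neighbouring pairs for Cxcl13, Ccl21a, Lta and Ltb, for 13 of 14 for Ccl19 and Ccr7, and for 9 of 14 for Tnfsf13b. For each of the 7 genes, at least 1 of the larger gaps had a gland group on one side or on both. Cxcl13 came after glands in ILC-Pik3Ca/Cdh1Null at 8.54 ± 1.33 (SD, n = 9), then in T11-Apobec at 7.99 ± 1.37 (n = 4), T11 at 6.36 ± 1.32 (n = 5) and T11-UV at 5.77 ± 2.31 (n = 4). KPB-1A, KPB-1B and p53-2225L were lowest for Cxcl13, between 0.92 and 1.52. Ccl19 was 7.47 ± 0.88 in ILC-Pik3Ca/Cdh1Null and at most 3.09 as a mean in any other end-stage model. In T11-UV that mean of 3.09 came from 1 tumour at 9.80, with the other 3 at 1.51, 1.03 and 0.

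ILC-Pik3Ca/Cdh1Null, a model named for lobular carcinoma with altered Pik3ca and loss of Cdh1, carried 6 of the 7 genes at higher levels than PyMT, where 21.9% of all genes were higher. Ccl21a ranged from 10.54 to 12.97 around a median of 12.16 in 9 ILC tumours and was 0.85, 8.61, 0.66, 4.48 and 1.22 in the 5 PyMT tumours, with no overlap. The fitted difference was 8.84 ± 1.57. Ccl19 and Ltb were higher by 6.38 ± 0.94 and 4.42 ± 0.66, Cxcl13 by 4.48 ± 1.01, Ccr7 by 4.15 ± 0.70 and Tnfsf13b by 2.90 ± 0.38, with a largest adjusted p of 0.000145. Lta did not pass the test, at 0.15 ± 0.57 (adjusted p = 0.853). PyMT Lta values of 4.58 to 6.81 lay inside the ILC range of 4.27 to 7.32.

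Markers of several cell types moved with that contrast. All 5 B cell markers were higher in ILC-Pik3Ca/Cdh1Null, with a median difference of 5.82, and so were all 5 T cell markers at 5.10, all 5 fibroblast markers at 4.30, all 5 adipocyte markers at 5.40 and 4 of 5 lymphatic endothelial markers at 2.06. The summed B cell level was 7.97 to 14.63 in ILC tumours and 3.70 to 5.17 in PyMT tumours. Of the lymphoid stroma list, 7 of 11 tested genes were higher and none lower. The part of each cell type in the difference was not tested.

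Tnfsf13b stood apart in 1 transplant line. All 21 samples of p53-2336R, at any time and in either arm, lay between 13.18 and 15.05, whereas the other 241 samples lay between 2.91 and 11.20. The 3 untreated p53-2336R tumours at 3 days were 14, 14.22 and 14.08, and the highest mean of the 4 other p53 lines sampled untreated at that time was 6.81. BAFF is better known as a myeloid product, and the p53-2336R values were set beside those of neighbouring genes, a view chosen after the values were seen. Among the 20 protein-coding genes on either side, 8 were higher in p53-2336R than the mean of the other 4 lines by more than 2, as were 5.19% of all 20154 protein-coding genes. Another 3 of the 40 were lower by more than 2, Lrrc8e at -4.21, Tgfbr3l at -2.67 and F7 at -2.10, as were 4.99% of all. Myo16, the next gene after Tnfsf13b, was 8.32 against at most 2.13, a difference of 7.22. The other 7 higher genes differed by 2.11 to 3.33, with Zfp958 at 3.33 and Col4a2 at 3.26. Lig4 and Abhd13, on the other side of Tnfsf13b, differed by -0.10 and 0.54, and the median over the 40 neighbours was 0.60.

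Among p53 lines Ccr7 was high in p53-9263-3, at 9.74, 10.28, 10.25 and 10.28 in the 4 untreated tumours at 3 days. It was 9.73 in the 1 tumour at end stage. The highest mean of the other 4 p53 lines at 3 days was 7.87. Tumours of other models reached such levels. Single tumours were at 10.42 in KPB25L-UV and 10.93 in KPB25L-Apobec, both untreated at 3 days, and at 11.29 in treated KPB25L-UV at 7 days. In the 4 p53-9263-3 tumours at 3 days, summed T cell markers were 8.36 to 8.57 and summed mature dendritic cell markers 13.02 to 13.34. These sums are not set beside those of the other lines, and the part of these cells in the Ccr7 level was not tested. Of 40 neighbouring genes, 9 were higher in p53-9263-3 by more than 2, as were 4.44% of all protein-coding genes, and none was lower by more than 2, as were 1.41%. On one side of Ccr7 they were the keratin genes Krt26 at 11.05, Krt25 at 9.17, Krt27 at 7.07 and Krt28 at 6.59 and the keratin-associated Krtap3-3 at 3.39, and on the other Gsdma at 7.56, Gsdma2 at 4.41, Gjd3 at 2.92 and Tns4 at 2.02. The immediate neighbours of Ccr7 were Tns4 and, at 0.44, Smarce1. This line was also singled out after its values were seen.

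**Figure D2:**
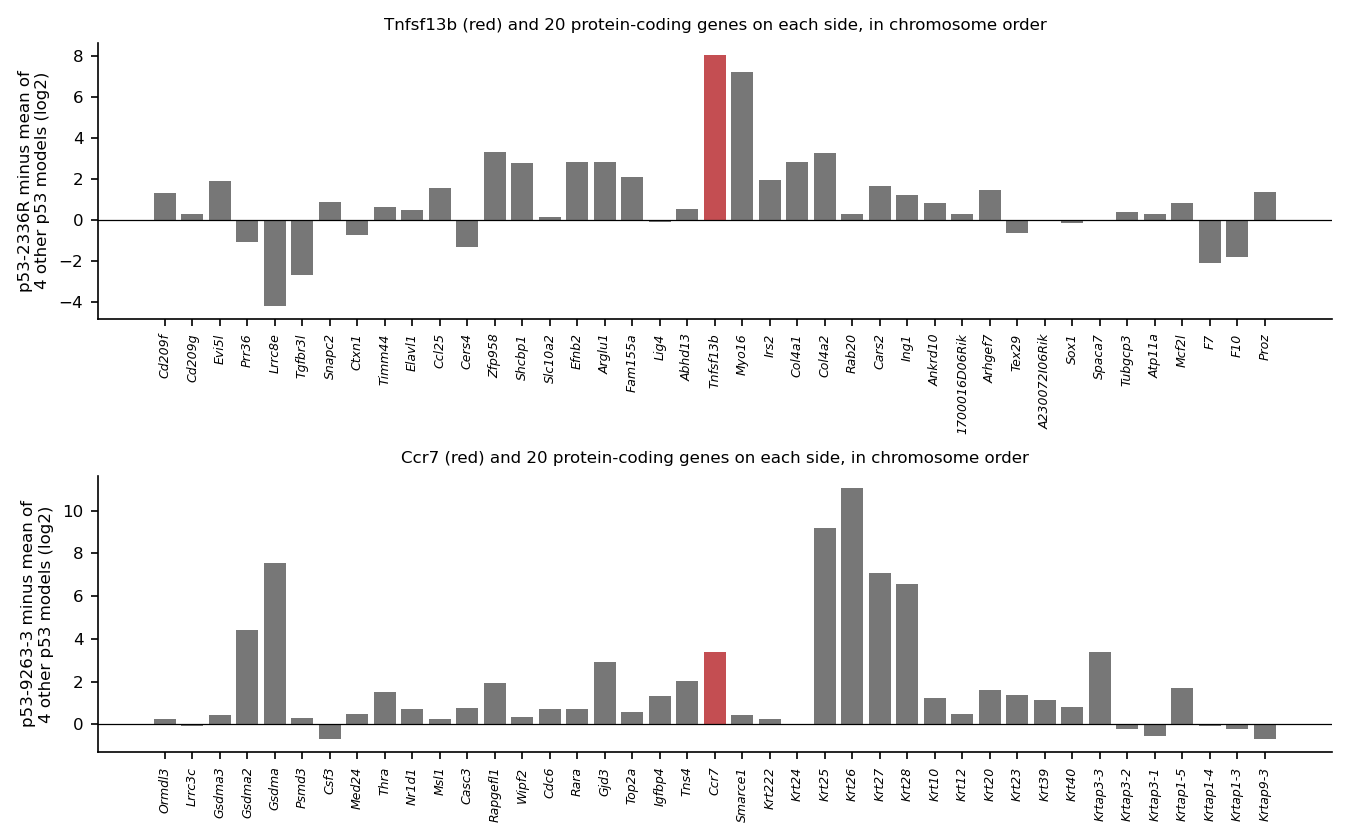
Difference in mean level (log2, vertical axes) between 1 p53 transplant line and the mean of 4 others, untreated at 3 days, for Tnfsf13b in p53-2336R (top) and Ccr7 in p53-9263-3 (bottom), in red, and 20 protein-coding genes on each side in grey. Bars start at 0. Tnfsf13b at 8.05 and Myo16 at 7.22 stand together, and Ccr7 at 3.41 lies near the keratin genes Krt25 to Krt28.

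In untreated tumours at 3 days, the T11 family was lower than the KPB25L family in 5 of the 7 genes, where 33.8% of all genes were lower. The strain given is BALB/c for T11 and FVB for KPB25L, so tumour family and strain cannot be told apart here. Ccl21a differed by -4.93 ± 1.12 and Ccl19 by -3.57 ± 0.71, and their receptor Ccr7 by -2.10 ± 0.39. Ltb differed by -1.51 ± 0.35 and Lta by -1.16 ± 0.42. Cxcl13 and Tnfsf13b did not pass the test, at 0.83 ± 0.68 and 0.02 ± 0.27. All 4 untreated T11-UV tumours at 3 days were at 0 for Ccl21a. After rescaling to sample medians Lta was -0.77 ± 0.43 (adjusted p = 0.113). It was -0.89 (adjusted p = 0.0533) without the KPB25L-UV sample that held T11 transcripts. With a term for flow cell 3 of the 7 passed, and Ccl21a was -3.37 ± 2.13 (adjusted p = 0.257). Lymphatic endothelial markers were lower in 4 of 5 and fibroblast markers in 5 of 5, with median differences of -2.11 and -2.14, and all 6 epithelial markers were lower. Their part was not tested.

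In the mean of 5 p53 lines, 2 of the 7 genes differed from T11 by the test, where 56.4% of all genes differed in either direction. By limma 3 of the 7 had an unadjusted p under 0.05. At 3 days untreated, Cxcl13 averaged 6.59 ± 2.30 (SD, n = 4) in T11 and between 0.83 and 2.96 in the 5 p53 lines, a fitted difference of -4.61 ± 0.95 (adjusted p = 1.25e-05), where 26.8% of all genes were lower. Ccr7 was higher by 1.38 ± 0.54 (adjusted p = 0.0227), where 29.5% of all genes were higher. That call was lost in 3 of 4 fits that each left out 1 replicate number from all groups, at 1.16 to 1.46. The mean also covers unlike lines. Tnfsf13b averaged 14.1 in p53-2336R and at most 6.81 in the other p53 lines, against 6.37 to 8.54 in T11 tumours. Ccl21a was 8.11 to 9.99 in p53-2153F and 0 to 4.17 in p53-2336R, against 0 to 4.43 in T11.

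Over untreated growth from 3 days to end stage, 4 of the 7 genes fell in the mean of 7 models, where 4.29% of all genes fell. Ltb fell by 0.92 ± 0.22 on the log2 scale (adjusted p = 0.00537), Lta by 0.99 ± 0.27, Ccr7 by 0.94 ± 0.25 and Tnfsf13b by 0.82 ± 0.17 (adjusted p = 0.00110). The chemokines did not pass, with Cxcl13 at -0.70 ± 0.43, Ccl19 at -1.31 ± 0.45 and Ccl21a at 0.64 ± 0.72. All 5 T cell markers and 3 of 5 mature dendritic cell markers fell as well, with list medians of -1.23 and -1.31, and their part was not tested. The count is not stable to fewer samples. It was 0 without replicate 3 of each group and 1 without replicate 4.

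Under therapy, the lymphotoxins, Ccr7, Ccl19 and Tnfsf13b rose at 7 days in the mean of the 4 sensitive models. By limma across 20848 genes, 5 of the 7 genes were higher in 18 treated than in 15 untreated tumours, where 15.5% of all genes were higher. Ltb rose by 2.23 ± 0.31 (SE), a 4.69-fold difference on the log2(value + 1) scale, with an adjusted p of 8.71e-09. Lta rose by 2.16 ± 0.38 (adjusted p = 2.63e-06), Ccr7 by 1.83 ± 0.35 (adjusted p = 1.33e-05) and Ccl19 by 2.97 ± 0.63 (adjusted p = 0.000106). The treated mean of each of these 4 genes was higher in 4 of 4 models. Tnfsf13b rose by 0.81 ± 0.24 (adjusted p = 0.00533), with a higher treated mean in 3 of 4 models. The members' median difference was 1.83, beside -0.07 over all genes tested.

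Cxcl13 and Ccl21a did not pass the test. The value for Cxcl13 was 1.34 ± 0.61 (adjusted p = 0.0710), and it was 2.06 ± 0.63 (adjusted p = 0.00690) without the KPB25L-UV samples that held T11 transcripts. It also passed on leaving out any 1 of 5 samples, namely KPB25L untreated 2 or treated 3, or KPB25L-UV untreated 3 or treated 1 or 5, at 1.46 to 1.66. With a flow cell term it was 0.40 ± 0.86 (adjusted p = 0.749). Ccl21a was -1.47 ± 1.00 (adjusted p = 0.248), with higher treated means in 2 models and lower ones in the other 2. Tnfsf13b with the flow cell term was 0.72 ± 0.35 (adjusted p = 0.0939), whereas Ccl19, Ccr7, Lta and Ltb passed with that term, at 2.67, 2.03, 2.45 and 2.34. Among the sensitive models only T11-UV had its 7-day arms on different flow cells, so only its differences can change with that term.

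**Figure D3:**
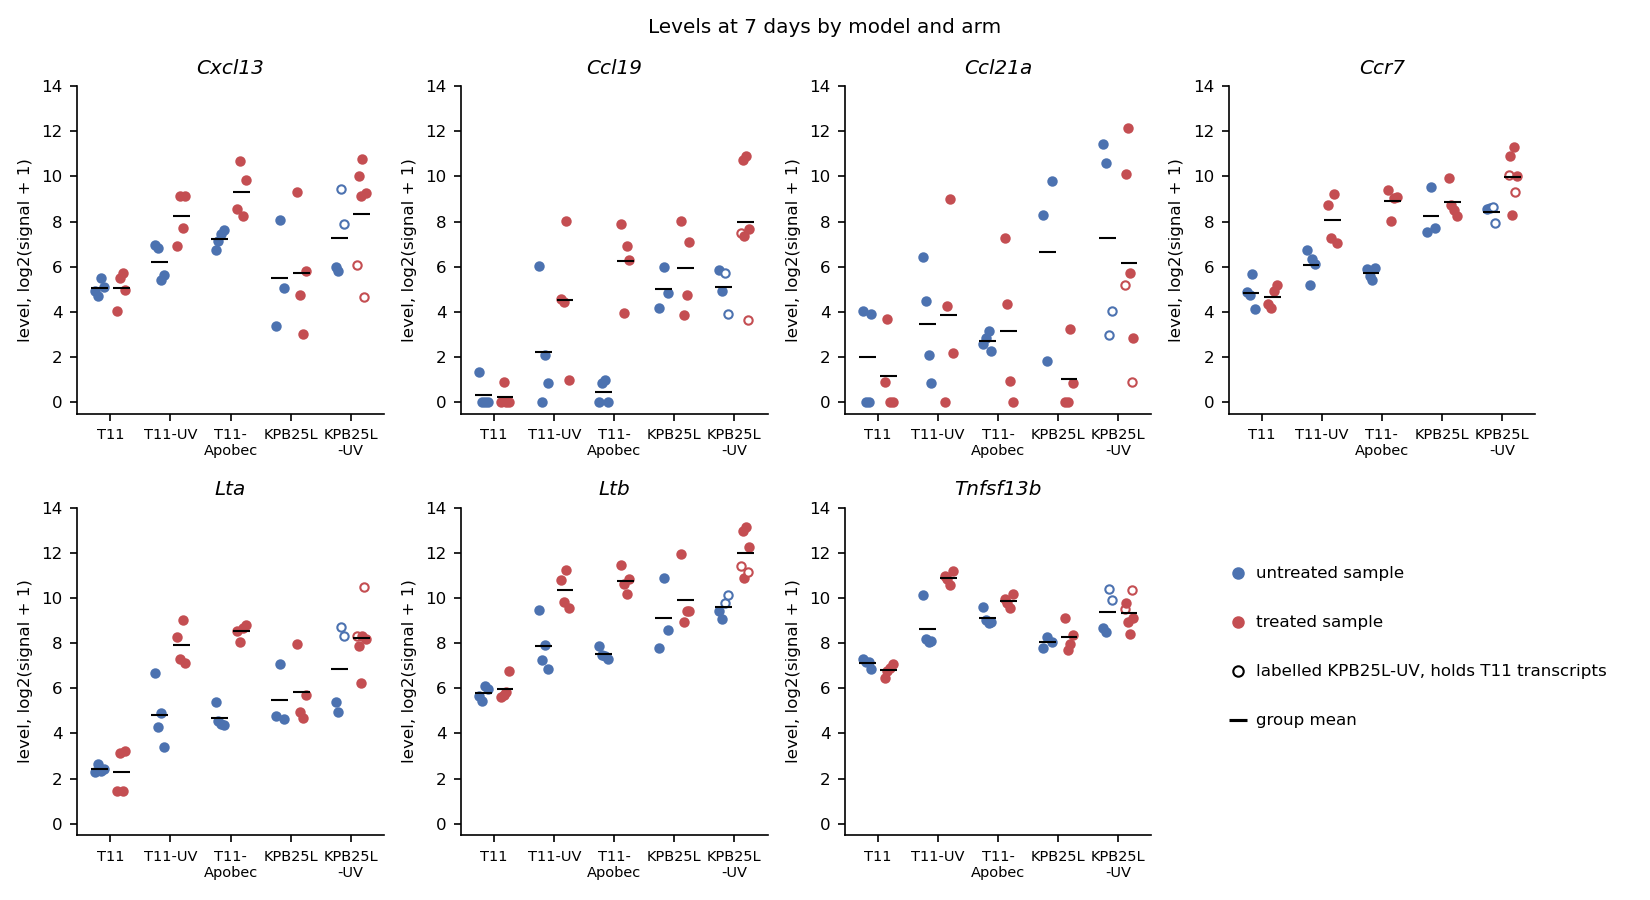
Levels of the 7 genes at 7 days, as log2(signal + 1), in untreated (blue) and treated (red) tumours of 5 models. Each dot is 1 sample, black lines are group means and open circles are samples labelled KPB25L-UV that hold T11 transcripts. T11-Apobec treated samples lie above all untreated ones for 5 genes, and T11 shows no such separation for any gene.

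T11-Apobec gave the widest separation. Ltb was 7.89, 7.46, 7.42 and 7.30 in untreated and 11.47, 10.61, 10.17 and 10.82 in treated tumours. Lta was 5.40, 4.56, 4.42 and 4.37 in untreated and 8.54, 8.04, 8.68 and 8.80 in treated tumours. Neither gene overlapped between arms, and the differences were 3.25 ± 0.63 and 3.83 ± 0.76. Ccr7, the receptor on naive T cells and mature dendritic cells, went from 5.92, 5.58, 5.39 and 5.93 to 9.39, 8.02, 9.06 and 9.09. Ccl19 was 0, 0.83, 0.98 and 0 in untreated and 7.88, 3.95, 6.92 and 6.31 in treated tumours, from at or near the level of 1 read to clear detection in all 4. The fitted differences were 3.19 ± 0.69 for Ccr7 and 5.81 ± 1.27 for Ccl19, and the 4 adjusted p-values were at most 0.000260. In this model 13.7% of all genes were higher by the test. Treated samples lay above all untreated samples for 5 of the 7 genes and for 22.2% of all genes. The fifth was Cxcl13, at 6.74, 7.14, 7.46 and 7.61 against 8.56, 10.66, 8.24 and 9.84, which did not pass the test at 2.09 ± 1.21 (adjusted p = 0.187).

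In T11-UV, Lta, Ltb and Tnfsf13b passed the test, where 4.31% of all genes were higher. Tnfsf13b was 10.12, 8.16, 8.04 and 8.11 in untreated and 10.95, 10.84, 10.57 and 11.20 in treated tumours, with a difference of 2.28 ± 0.49 (adjusted p = 0.000666). Lta was 6.69, 4.28, 4.92 and 3.38 against 8.25, 7.28, 9.01 and 7.12, and Ltb was 9.46, 7.23, 7.93 and 6.86 against 10.78, 9.82, 11.24 and 9.53. The same untreated sample was highest for all 3 genes and still lay below every treated sample. Separation of the arms was complete for these 3 genes and Ccr7, and for 6.08% of all genes. Ccr7 missed the threshold at 1.98 ± 0.69 (adjusted p = 0.0593). The 4 treated samples were all on 1 flow cell and the 4 untreated samples all on another. Therapy and flow cell cannot be told apart within this model. None of the 3 calls held with a flow cell term, where Lta was 4.25 ± 1.79, Ltb 2.92 ± 1.44 and Tnfsf13b 1.92 ± 1.12, or with the spread taken from the 2 compared groups alone, where the smallest adjusted p was 0.0513. Without replicate 3 of each group 1 call, Tnfsf13b, was left.

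KPB25L-UV passed for Ltb alone, where 8.0% of all genes were higher. Untreated levels were 9.42, 9.06, 9.78 and 10.13, and treated levels ran from 10.86 to 13.13 with a median of 11.84. The arms did not overlap for Ltb, which was so for 1 of the 7 genes and 2.65% of all genes, and the difference was 2.37 ± 0.57 (adjusted p = 0.00178). Without the samples that held T11 transcripts, which left 2 untreated and 4 treated tumours, 3 genes passed. Ltb was then 3.07 ± 0.77, Lta 2.49 ± 0.86 (adjusted p = 0.0313) and Cxcl13 3.91 ± 1.43 (adjusted p = 0.0424). The 2 remaining untreated tumours were 6.0 and 5.79 for Cxcl13 and the treated ones 10.03, 9.14, 10.78 and 9.28. Leaving out treated sample 5 alone also gave 3 calls, and leaving out treated sample 3 gave 2. No call held with the spread taken from the compared groups alone. With a flow cell term 2 genes passed, Ltb and Ccl19 at 2.87 ± 1.08. All samples of both arms were on 1 flow cell. That term therefore cannot change the differences, only their errors and adjusted p-values.

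KPB25L gave no call among the 7 genes, and 0.0% of all genes were called. By limma 1 of the 7, Ccl21a, had an unadjusted p under 0.05. It was 8.29, 1.84 and 9.80 in untreated and 0, 0, 3.22 and 0.87 in treated tumours, a difference of -5.62 ± 2.17 (adjusted p = 0.665). The other 6 differences lay between 0.22 and 0.92. Treated KPB25L mice lay above all untreated ones for 0 of the 7 genes and 1.85% of all genes. In both arms 1 mouse was high for several genes together, with Ltb at 10.89 in an untreated mouse whose companions had 7.79 and 8.59, and at 11.93 in a treated mouse whose companions had 8.91 to 9.43.

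Resistant T11 gave no call either, at 0.0% of all genes called. None of the 7 had an unadjusted p under 0.05 by limma, and all 7 differences lay between -0.84 and 0.19. Ltb was 5.65, 5.44, 6.10 and 5.96 in untreated and 5.6, 5.72, 5.84 and 6.77 in treated tumours. Ccl19 was at 0 in 3 of 4 tumours of each arm. Treated samples lay above all untreated ones for 0 of the 7 genes, beside 1.36% of all genes. Ltb in T11 was lower in all 8 tumours than in any other 7-day tumour.

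The difference between the response of sensitive models and that of T11 was tested directly and not resolved. It was called for 0 of the 7 genes and for 0.0048% of all genes, that is 1 gene. By limma 5 of the 7 had an unadjusted p under 0.05. The difference of differences was 2.04 ± 0.70 for Ltb (adjusted p = 0.322), 2.28 ± 0.85 for Lta, 2.02 ± 0.77 for Ccr7, 3.08 ± 1.42 for Ccl19 and 1.14 ± 0.54 for Tnfsf13b. The rise in sensitive models is therefore not shown to exceed that in T11, in which each arm had 4 mice.

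At 3 days none of the genes passed in either class. The untreated tumours of this comparison are those called pretreatment in the header. If that name is right, therapy and 3 days of growth cannot be told apart here. In sensitive models 13.8% of all genes were called and 0 of the 7, with 3 of the 7 at an unadjusted p under 0.05 by limma. Lta was 1.05 ± 0.38 (adjusted p = 0.0507), Tnfsf13b 0.63 ± 0.25 (adjusted p = 0.0655) and Ltb 0.73 ± 0.32. Without the KPB25L-UV sample that held T11 transcripts, Lta was 1.25 ± 0.36 (adjusted p = 0.0122) and Tnfsf13b 0.71 ± 0.25 (adjusted p = 0.0326). In the 3 resistant models T11, p53-2225L and p53-2336R, 0.0% of genes were called, and Lta at 1.14 ± 0.43 and Ltb at 0.95 ± 0.36 were the 2 with an unadjusted p under 0.05. At end stage the counts were 0 of 7 in sensitive models, where 0.0288% of genes were called, and 0 of 7 in resistant models, where 0.0% were. Ltb was then -0.03 ± 0.30 in sensitive and 0.23 ± 0.33 in resistant models. The lowest unadjusted p at end stage belonged to Ccl21a in sensitive models, at -2.24 ± 0.97 (adjusted p = 0.678), the only 1 of the 7 under 0.05 there, and there were none in resistant models. The end-stage arms shared no flow cell in T11-UV, T11-Apobec and KPB25L-UV, and neither did the 3-day arms in T11. Therapy and flow cell cannot be told apart within those comparisons.

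**Figure D4:**
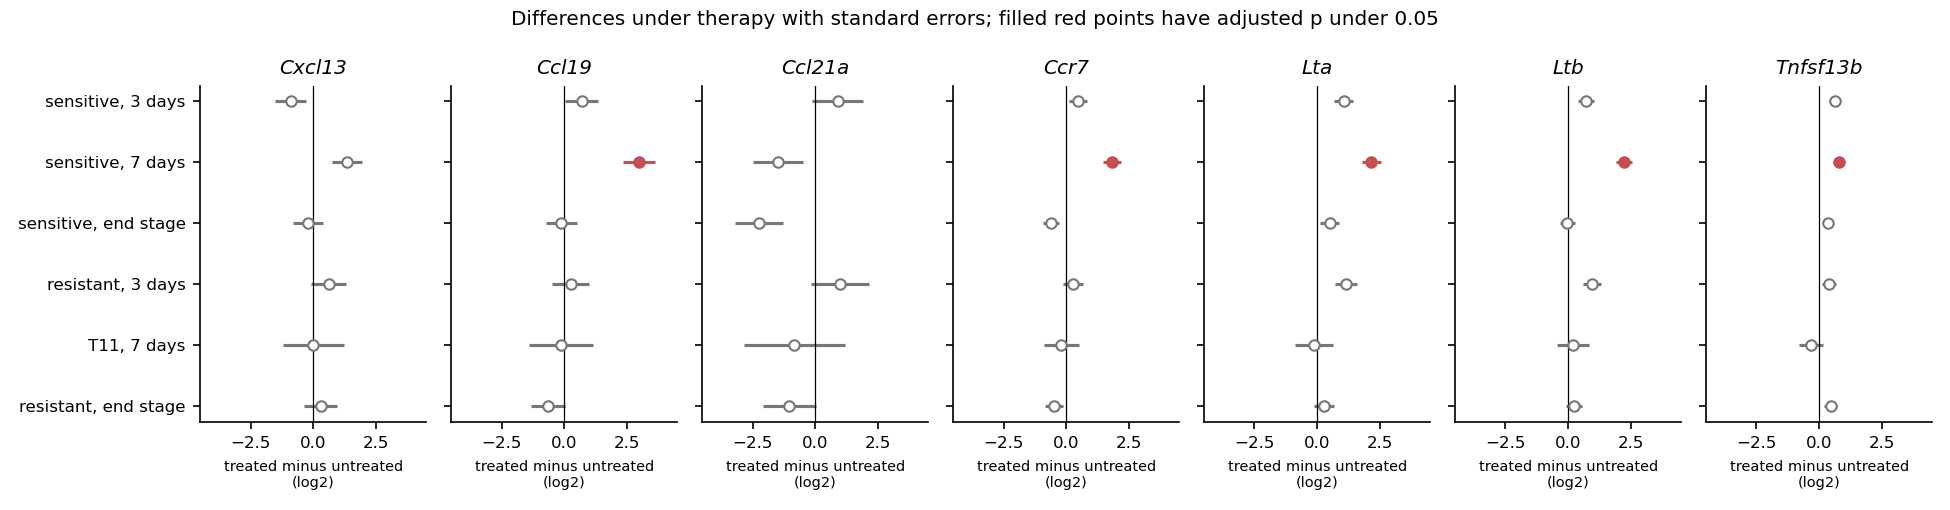
Treated minus untreated difference (log2, horizontal axes) with its standard error for the 7 genes in sensitive and resistant models at each time. Filled red points passed at an adjusted p under 0.05. The 5 red points are all at 7 days in sensitive models, and the comparisons share no samples with each other.

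Within treated sensitive tumours, 2 of the 7 genes rose between 3 and 7 days, where 3.13% of all genes rose. Cxcl13 rose by 2.48 ± 0.61 (adjusted p = 0.00504), from a mean of 5.42 to 7.90, and Ltb rose by 1.21 ± 0.32 (adjusted p = 0.00803), from 9.54 to 10.75. Both calls were lost when replicate 1 was left out of every group, at 1.88 and 1.01, and with the spread taken from the compared groups alone. Lta at 1.11 ± 0.38 and Ccl19 at 1.20 ± 0.64 did not pass. This comparison uses the treated samples of the 3-day and 7-day comparisons above and is not independent of them.

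Other genes of the same pathways were taken from lists and read at 7 days in sensitive models. Of 12 TNF family ligands and receptors, 7 were higher and none lower, with a median difference of 0.77. They included Tnf at 1.23 ± 0.25, Tnfsf14 (LIGHT, a second ligand of the lymphotoxin beta receptor) at 1.07 ± 0.30, Tnfsf13 (APRIL, a relative of BAFF) at 0.92 ± 0.19 and Tnfrsf1b, a TNF receptor, at 0.79 ± 0.16. Ltbr itself, the receptor of the lymphotoxin trimer, was 0.20 ± 0.09 (adjusted p = 0.0848). Of 12 NF-kB genes, 5 were higher and 1 lower, with a median of 0.14. Birc3 and Nfkbia, both induced by NF-kB, were 0.58 ± 0.11 and 0.52 ± 0.10, Relb, a subunit of the non-canonical pathway, was 0.34 ± 0.08, and Map3k14, its kinase, was lower at -0.46 ± 0.10.

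Of 12 chemokine partners, 3 were higher, Cxcr4 at 0.88 ± 0.15, the venular chemokine receptor Ackr1 at 1.45 ± 0.50 and Ccl27a at 0.85 ± 0.32, with a list median of 0.20. Cxcr5, the receptor of CXCL13, missed the threshold at 0.98 ± 0.41 (adjusted p = 0.0515). Of 12 genes of lymphoid stroma and high endothelial venules, 6 were higher. They included the venular addressin Madcam1 at 1.62 ± 0.37, Fut7, which makes selectin ligands, at 1.22 ± 0.26, and the adhesion molecules Icam1 at 1.06 ± 0.20 and Vcam1 at 0.52 ± 0.19. Each median stands beside -0.07 over all genes and the 15.5% of genes called higher. T11 gave no call in any of these lists, nor among all 20848 genes tested, so the lists do not set it apart.

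Lymphocyte markers moved with the 7-day rise. All 5 T cell markers were higher in sensitive models, with a median of 2.64, and 4 of 5 B cell markers were, with a median of 1.40. Among mature dendritic cell markers, Ccl22 at 2.53 ± 0.40 and Ccl17 at 2.27 ± 0.43 rose and Fscn1 fell by 0.46 ± 0.10. None of the 3 follicular markers Cr2, Fcer2a and Chst4 passed, with a median of 0.28. In T11-Apobec the summed T cell level went from 9.17-9.97 to 12.07-12.63 while the B cell sum stayed within 5.19-7.43 and the follicular sum within 1.74-4.36. In T11-UV the T cell sum went from 7.42-9.75 to 11.20-11.86, and in T11 it was 5.80-6.85 untreated and 6.09-7.70 treated. The follicular sum in 7-day tumours reached 10.65 in 1 treated KPB25L-UV tumour. The part of lymphocyte content in the rise of the 7 genes was not tested.

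Between mice of the same group, most of these genes rose and fell together. After subtraction of group means, 189 tumours of 44 groups gave 21 pairs, of which 20 had a correlation above 0 and 16 had an adjusted p under 0.05 by permutation within groups, two-sided, with 100000 resamples and Benjamini-Hochberg adjustment. Ccr7 and Ltb had Pearson's r of 0.71 and Spearman's rho of 0.66 (permutation p = 1e-05 for both, the smallest the resamples can give, adjusted p = 2.33e-05 and 2.62e-05). Without the 2 samples farthest from the median r was 0.69, and with flow cell means removed it was 0.68. Lta and Ltb had r = 0.61 and rho = 0.53, Ccl19 and Ltb 0.59 and 0.43, and Cxcl13 and Ccl19 0.50 and 0.45, all with the same permutation p of 1e-05. Of the 5 pairs that did not pass, 4 held Ccl21a, with r = 0.04 to Lta (permutation p = 0.663), 0.10 to Ccr7, 0.18 to Ltb and -0.04 to Tnfsf13b. The fifth was Ccr7 with Tnfsf13b, at r = 0.09 (permutation p = 0.294, adjusted p = 0.343). The correlation of Ccl21a with Ccl19, the other ligand of CCR7, was 0.45 (permutation p = 2e-05), and that of Ccl21a with Cxcl13 was 0.27. The count of pairs called was 14 with flow cell means removed and 16 without the KPB25L-UV samples that held T11 transcripts.

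Set beside marker lists, a comparison of 77 pairs added after the data were seen, the genes divided by list. Ltb followed the summed T cell markers with r = 0.87 and rho = 0.83 (permutation p = 1e-05, adjusted p = 5.13e-05), and 0.85 without the 2 farthest samples. Ccr7 had r = 0.65 with T cell and 0.60 with mature dendritic cell markers, and Lta had 0.58 with T cell markers. Ccl19 was similar for B cell, T cell and follicular markers at 0.54, 0.53 and 0.52. Cxcl13 had 0.52 with T cell and 0.31 with follicular markers. Ccl21a, which lymphatic endothelium also makes, had r = 0.71 and rho = 0.67 with lymphatic endothelial markers and 0.10 with T cell markers. Tnfsf13b had 0.47 with T cell and 0.17 with macrophage markers. These lists share libraries with the genes, and Ccl22 and Ccl17 of the dendritic cell list are themselves chemokines.

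**Figure D5:**
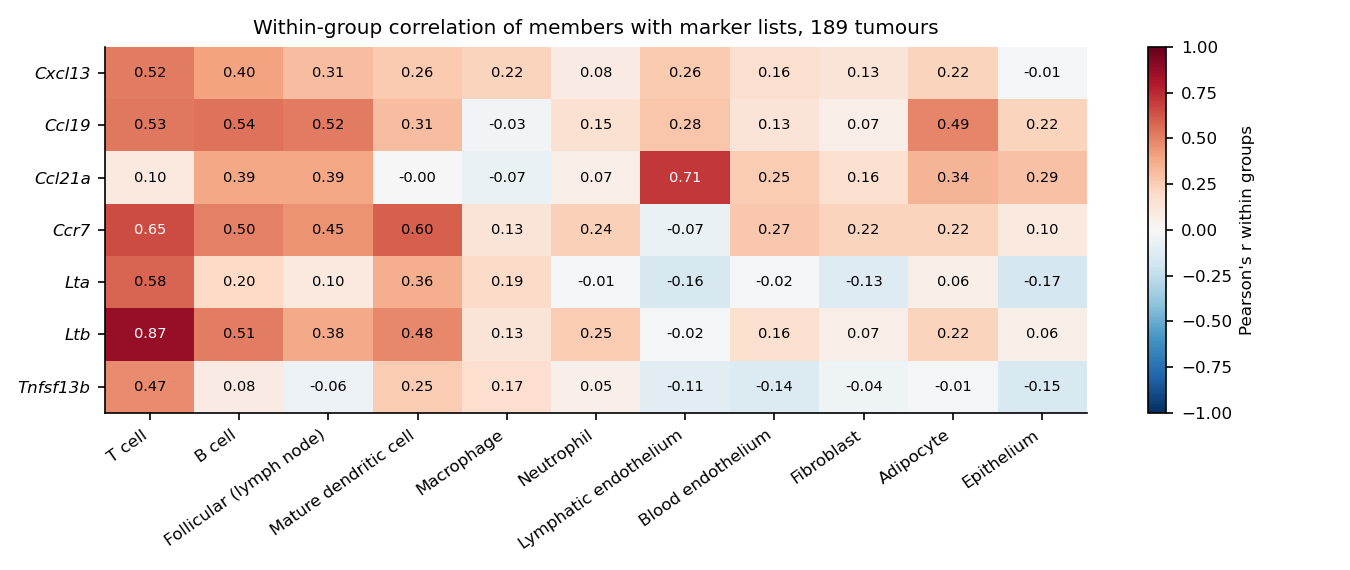
Pearson's r between each of the 7 genes (rows) and the summed level of 11 marker lists (columns), over 189 tumours after subtraction of group means, with red above 0 and blue below 0. Ltb with T cell markers reads 0.87 and Ccl21a with lymphatic endothelial markers 0.71, while Ccl21a with T cell markers reads 0.10.

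Over the means of 43 groups, the genes with patterns most like each member were also described, with no test. For Ltb they were S1pr4 (r = 0.97), Stat4 (0.96) and Ccl22 (0.96), for Ccl19 Tnfrsf4 (0.94), Cd4 (0.91) and H2-Oa (0.89), and for Lta Pdcd1lg2 (0.90), Ly6i (0.90) and Il18bp (0.88). For Ccr7 they were Il4i1 (0.89), Napsa (0.89) and C1rb (0.88), and for Cxcl13 Cyfip2 (0.88), Ptpn22 (0.88) and Cd83 (0.87). Ccl21a had Mmrn1 (0.84), a lymphatic endothelial gene of the marker list, then Car3 (0.75) and Vat1l (0.74). Tnfsf13b had Adam17 (0.90), Itgb1bp1 (0.88) and Tm2d2 (0.88), an order that rests on groups with p53-2336R far above the rest. Between members over group means, Ccl19 and Ltb had 0.89 and Lta and Ltb 0.84, whereas Cxcl13 and Ccl21a had 0.02.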

How the data were processed

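RNA-seq of 270 libraries (paired reads, per the labels) was analysed, and 13 DNA samples were not analysed here. The authors deposited linear signal for each gene and library. Every tumour and gland library has the same upper quartile, 2048.974, and the 6 cultured-line libraries have another table. The submitters' processing notes name STAR, SAMtools, Picard, Salmon and mm10, with versions and read assignment not given in the sources used here. Entries named as dates (39) or repeated (28) were dropped, and 1 unnamed value column, the row sum, was not used. Signal was analysed as log2(value + 1) with limma 3.58.1 (R 4.3.3), 1 mean per model, time and arm, trended variances and Benjamini-Hochberg adjustment, called at 0.05. A gene was tested when above 0 in 4 or more samples and in the upper 66.7% by mean. The first fit held 192 samples in 47 groups, the second 105 in 15. Repeat libraries of 1 animal were averaged. Another 4 mouse names stand on both a treated T11-UV sample at 7 days and a treated KPB25L-UV sample at end stage, and these were taken as separate animals because the models differ. The spread is shared by all groups of a fit. Reads were estimated by taking the most frequent positive value of a library as the worth of 1 read. By library, 28.3% to 83.7% of small values were whole multiples of it within 0.01, too few for a count test. The method was tested on simulated data. Named genes were the 7 members, listed pathway genes called at 7 days (up to 5 a list, smallest p first) and the 3 genes most correlated with each member. Ltbr, Cxcr5, single marker genes and neighbouring genes (with their share of all protein-coding genes) were chosen after their values were seen. The members and lists were chosen with earlier results of these data known. Alternatives were other pseudocounts, no filter, median rescaling, untrended variances, a flow cell term, spread from compared groups, left-out samples and every library as 1 sample. Positions are from GENCODE and promoters from RefSeq GRCm38.p6.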

Additional observations from a re-analysis of the deposited data

Results flagged for a closer look

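In 33 sets of gene and group of 4 to 10 samples, 11.3% of those examined, 1 sample lay far from the others by Dixon's criterion, which chance gives in about 1 in 20. Several of these sets hold samples at 0, where 1 sample with a few reads is enough. Levels are log2(value + 1).

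For Cxcl13 the highest sample stood apart in KPB-1B at end stage (3.69, the other 3 at 0), in treated T11-Apobec at end stage (11.69, next 7.34) and in untreated p53-2153F at 3 days (3.30, the others at 0), and the lowest in treated T11-UV at end stage (3.55, next 6.64). For Ccl19 the highest stood apart in treated KPB25L-UV at end stage (6.52), T11 at 7 days treated (0.88) and untreated (1.35), untreated T11 at end stage (5.55), treated T11-Apobec at end stage (2.05), treated T11-UV at end stage (1.86), untreated T11-UV at end stage (9.80) and treated p53-2225L at 3 days (1.45), and the lowest in untreated p53-9263-3 at 3 days (0). The untreated T11-UV end-stage tumour at 9.80 for Ccl19 was also the one apart for Ccr7, at 9.65 with the next at 5.13.

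For Ccl21a the lowest stood apart in untreated KPB25L (0, next 5.76) and KPB25L-UV (0, next 9.35) at 3 days, and the highest in untreated T11-Apobec at 3 days (12.24, next 3.71), treated T11 at end stage (2.94) and treated p53-2336R at end stage (4.33). BALB/c gland 1 stood above the other 4 glands for Ccl21a (16.42), Lta (10.76) and Ltb (13.95). For Ccr7 the remaining samples were KPB25L at 3 days (9.68, highest), KPB25L-UV at 7 days (7.94, lowest, 1 of those with T11 transcripts), p53-2225L at 3 days (4.92, lowest) and p53-9263-3 at 3 days (9.74, lowest), all untreated. For Lta they were untreated T11-UV (3.52), p53-2225L (1.98) and p53-9263-3 (2.31) at 3 days, each lowest. For Ltb it was untreated KPB25L-Apobec at 3 days (11.73, highest). For Tnfsf13b they were untreated KPB25L-Apobec at 3 days (9.46), T11-Apobec at end stage (8.51) and T11-UV at 7 days (10.12), each highest.

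The 6 cultured lines, 1 library each in a table normalized separately, had values above the level of 3 reads for Lta, Tnfsf13b and Ccr7. Lta was 3.65, 5.33 and 7.44 in the KPB lines, from an estimated 29, 94 and 529.1 reads, and 1.68, 2.88 and 3.31 in the T11 lines, from 7, 17 and 15 reads. Tnfsf13b was 3.66, 2.88 and 4.09 in the T11 lines, from 37, 17 and 27 reads, with at most 2 reads in the KPB lines. Ccr7 was 1.58, 1.42 and 3.75 in the KPB lines, from 5, 4 and 38 reads, with at most 1 read in the T11 lines. Ccl19 and Ccl21a were at 0 in all 6 lines, Cxcl13 had 1 read in 1 line and Ltb at most 3 reads. With 1 library per line these values have no replicate check, and they are not set against tumour levels.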

How the results depend on the processing

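Main results here are the counts of members and pairs called and the values of single genes at 7 days in sensitive models. Under settings other than a left-out sample, 234 values of the main results kept their direction and side of the threshold, or their count within 1.5 times, 11 counts moved further, 2 values gained and 1 lost the threshold, and none reversed. For single genes called in the other comparisons, 444 values kept the threshold and 13 lost it. With left-out samples 579 kept it and 19 lost it. With a pseudocount of 10, Cxcl13 at 7 days in sensitive models was 1.29 and passed, 3 members passed in KPB25L-UV and 1 passed at 3 days in sensitive models. Median rescaling gave 2 there. A flow cell term gave 0.72 for Tnfsf13b at 7 days, 0 members in T11-UV, 2 in KPB25L-UV and 3 between the T11 and KPB25L families. That term could not be estimated for 7 days against 3 days, untreated growth, p53 against T11, or T11, KPB25L and unknown models against glands. With spread from the compared groups only, 0 members passed in T11-UV, KPB25L-UV and 7 days against 3 days. Without the KPB25L-UV samples with T11 transcripts, Cxcl13 at 7 days was 2.06, and 3 members passed in KPB25L-UV and 2 at 3 days in sensitive models. The cause of these changes was not tested.

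Leaving out samples in turn at 7 days in sensitive models gave 5 to 6 members, Cxcl13 0.98 to 1.79, Ccl19 2.68 to 3.28, Ccl21a -2.64 to -0.57, Ccr7 1.63 to 2.02, Lta 1.95 to 2.39, Ltb 1.98 to 2.45 and Tnfsf13b 0.74 to 0.94. Counts of members ran from 1 to 4 in T11-UV, 1 to 3 in KPB25L-UV, 0 to 2 at 3 days in sensitive models, 0 to 3 for 7 days against 3 days, 0 to 4 for untreated growth, 1 to 2 for p53 against T11 and 4 to 5 between the families. An arm left with few samples is assumed to vary like the other groups. No paired analysis was possible because the labels give library and mouse names but no replicate numbers shared between groups.

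Counts over all genes moved more. With the flow cell term 8 genes were called in T11-UV against 1555, 272 at 3 days in sensitive models against 2886 and 5310 between the families against 11532. With spread from the compared groups only the counts were 442 in T11-UV, 2 in KPB25L-UV against 4048, 0 at 3 days in sensitive models, 158 for 7 days against 3 days, against 1379, 2436 for untreated growth, against 1115, and 365 between glands, against 756. With no filter by mean, 1384 genes differed between glands. For comparisons with few calls, no filter gave 8 genes in T11, 26 in KPB25L, 9 at 3 days and 18 at end stage in resistant models, all against 0, and 14 for sensitive models minus T11, against 1. The flow cell term gave 1 in KPB25L, 114 and 1 in resistant models at 3 days and end stage, and 36 for sensitive models minus T11, which was 3 with a pseudocount of 10, 5 without the KPB25L-UV samples with T11 transcripts and 0 with median rescaling or spread from the compared groups. At end stage the count in sensitive models, 6, was 3 with a pseudocount of 0.1 or spread from the compared groups and 12 without those samples, and in resistant models it was 1 with a pseudocount of 10 and 3 with spread from the compared groups.

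Depth limits Ccl19, Ccl21a and Cxcl13, which were at or near 0 in many tumours. Values of 1 or 2 reads carry counting error that the log scale does not remove. Flow cells were unevenly spread over groups, and where a group sat on 1 flow cell the 2 cannot be told apart.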
